A study of Mus musculus with 10 samples.

Results

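The B cell and plasma cell genes described here are Cd79a, Cd79b, Ms4a1, Blnk, Pax5, Cr2, Jchain, Prdm1 and Xbp1. They were taken as every probe on the array whose gene name, or whose current symbol through the accession of its transcript, is one of these 9, and Jchain stands on the array under its older name Igj. All 9 genes were found, on 13 of 41174 probes, and the array names 27670 genes in all. Cd79a, Cd79b, Blnk, Prdm1 and Xbp1 have 1 probe each, and the other genes have 2 each. The samples were whole lungs of female BALB/c mice, 6 to 8 weeks old on arrival, and each array held the RNA of 1 lung sample. In the smoke group, 5 mice breathed cigarette smoke through whole body exposure over 8 weeks, and in the room air group 5 mice were kept the same way without smoke. The tissue is a mixture of cells, so that fewer cells of a type and less RNA per cell cannot be told apart in any value below.

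B cells recognize antigen through a membrane immunoglobulin that signals through Cd79a and Cd79b, and the adaptor Blnk carries the signal from the kinase Syk to Btk and Plcg2. Pax5 keeps a cell in the B lineage, and Ms4a1 (CD20) and the complement receptor Cr2 (CD21) are surface proteins of mature B cells. When a B cell becomes a plasma cell, Prdm1 shuts down the B cell program, Xbp1 expands the secretory machinery, and Jchain joins immunoglobulin subunits into the polymers that Pigr carries across an epithelium. In the lung, B cells lie scattered in the tissue, and they can gather around airways and vessels. Blnk is also expressed in macrophages.

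Each array was read in a red and a green channel. The Y chromosome genes Ddx3y, Eif2s3y and Kdm5d were well above background in green on 10 of 10 arrays and in red on 2, 0 and 1. The lung genes Sftpc, Scgb1a1 and Ager had log2 signals higher in red by 6.39, 6.72 and 4.83. For this reason, red was read as the lung of the female mouse and green as a reference containing RNA of males, although the labels name the green dye alone. A level below is a log2 ratio of lung over reference, and a difference is the smoke mean less the room air mean of these ratios. In red, 67.8 to 76.7% of the spots of the room air arrays and 64.9 to 77.5% of those of the smoke arrays were well above background. All 286449 values of the authors' table of both channels were within 0.0001 of the scanner values of the opposite group's array of equal replicate number, so the groups of that table are exchanged against the scanner files. Every direction given here rests on the scanner files as assigned to the samples. Each slide carried 2 arrays, smoke in place 1 and room air in place 2, so that place and group cannot be told apart. Room air replicate 1 stood apart from its group in neutrophil genes: the mean log2 ratio of 7 neutrophil markers was 3.57 there, and 2.00, 2.03, 1.82 and 2.16 on the other room air arrays. It was also the highest of its group in the means of other gene lists described below. Among them were B cell recruitment and survival (1.80, the others 0.90 to 1.11) and endoplasmic reticulum stress (-0.06, the others -0.34 to -0.27).

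What a member's value can show depends on its probe. Probes of 60 bases whose position on the array's genome build (mm7) was read from the scanner files are shown for 3 of the dimmest B cell genes. The Cd79a probe covers chr7:21688822-21689079, which at 258 bases is longer than the probe, so it crosses at least 1 intron and reads spliced RNA. The same holds for a Pax5 probe at chr4:44551296-44583850, which spans 32555 bases. The Cr2 probe lies in 1 piece at chr1:194717651-194717710.
Cd79a, A_52_P651316: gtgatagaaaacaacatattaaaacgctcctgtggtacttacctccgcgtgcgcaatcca
Pax5, A_51_P122855: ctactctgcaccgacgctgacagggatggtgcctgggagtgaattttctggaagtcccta
Cr2, A_52_P490788: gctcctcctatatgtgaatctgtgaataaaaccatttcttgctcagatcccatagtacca
The intron-crossing Pax5 probe was well above background in red on 1 of 5 room air arrays and 0 of 5 smoke arrays, and no fold is given for it. A weak probe and an absent transcript cannot be told apart from this. The other Pax5 probe, A_52_P429826, was made for a cDNA clone (AK040987), was brighter, and stands for Pax5 below by the rule that the brightest probe represents a gene. The other 12 probes were well above background in red on all 10 arrays. In the green reference, the Cd79a probe was well above background on 3 arrays and the brighter Pax5 and Cr2 probes on 0, so the ratios of these 3 genes depend on the background correction.

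Of the 9 genes, Blnk alone passed the threshold of limma's test (adjusted p under 0.05), and it was higher with smoke. Across the array, 1370 of 27669 genes (4.95%) were higher with smoke by the same test and 905 (3.27%) were lower. The other 8 genes did not pass, 6 with a higher and 2 with a lower mean in the smoke group. Leaving out 1 array could turn the sign for Ms4a1 (down to -0.02), Xbp1 (down to -0.01) and Pax5 (up to 0.02). The median difference of the 9 genes was 0.12, against -0.00 over all genes, with a range from -0.14 for Prdm1 to 1.38 for Blnk. With the red channel at its 75th percentile the median of the 9 genes was 0.35, against 0.01 over all genes. By probe, 2 of 13 passed, both higher, where 4.35% of all probes passed as higher. With the slide as a block, which compares smoke and room air within each slide, 7.50% of genes passed as higher and 6.27% as lower, and 6.78% of probes were higher. Blnk was again the only gene of the 9 that passed. The groups did not overlap for Blnk alone (7.89% of all genes), and by probe for Blnk and the second Jchain probe (6.89% of all probes).

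**Figure D1:**
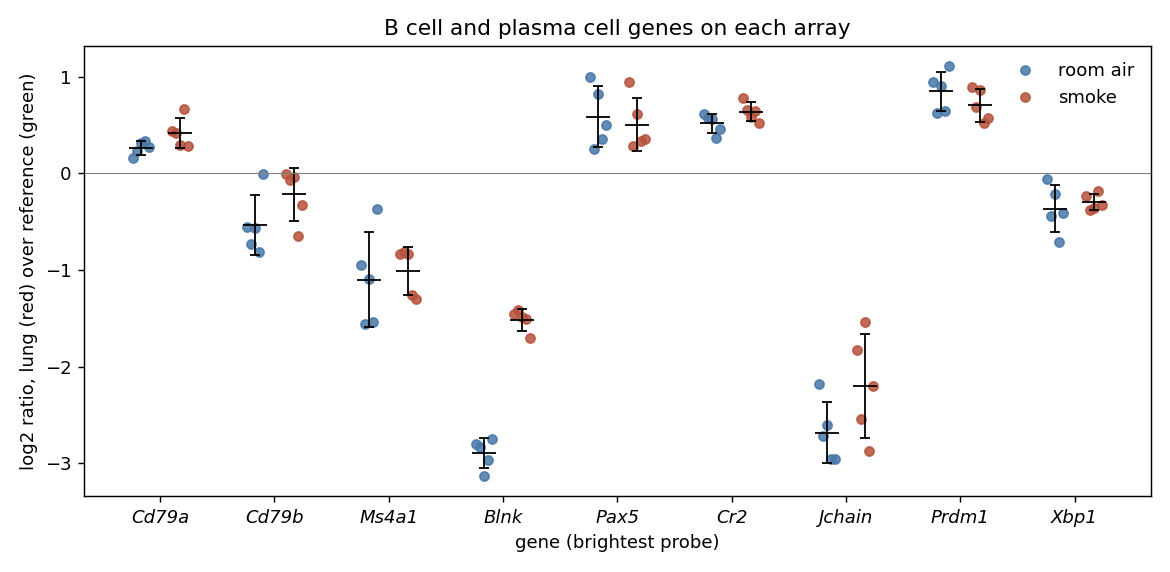
Log2 ratio of lung over reference for the brightest probe of each of the 9 genes. Points are the 5 arrays of a group, and bars are the mean ± SD. Blnk is the gene whose groups lie apart, near -2.89 with room air and near -1.51 with smoke.

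Blnk, the adaptor that links the B cell receptor to calcium signalling, had log2 ratios of -2.80, -2.83, -3.13, -2.96 and -2.74 on room air arrays 1 to 5. On the smoke arrays its ratios were -1.45, -1.41, -1.49, -1.50 and -1.70. The groups did not overlap, and the lowest smoke value was more than 1 unit above the highest room air value. The means were -2.89 ± 0.15 (SD, n = 5) and -1.51 ± 0.11, a difference of 1.38 ± 0.08 (SE), or 2.60-fold with a 95% confidence interval of 2.30 to 2.94 (limma, adjusted p = 2.54e-06). Within the slides the smoke array was higher by 1.35, 1.42, 1.64, 1.46 and 1.04. The change lay in the lung channel: scaled to the 75th percentile of each array, the red signal of Blnk differed by 1.40 and the green signal by -0.05 on the log2 scale. Blnk was past the threshold without each array in turn, with differences from 1.32 to 1.43.

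The 250 bases before the start of a gene are shown for Blnk, which rose, and beside it for Cd79a, which acts in the same pathway and did not pass. They are from RefSeq on GRCm38.p6, at chr19:40994222-40994471 on the minus strand for Blnk and chr7:24897247-24897496 on the plus strand for Cd79a. Capitals mark matches to 3 motifs (octamer, PU.1 and EBF) searched on both strands.
Blnk: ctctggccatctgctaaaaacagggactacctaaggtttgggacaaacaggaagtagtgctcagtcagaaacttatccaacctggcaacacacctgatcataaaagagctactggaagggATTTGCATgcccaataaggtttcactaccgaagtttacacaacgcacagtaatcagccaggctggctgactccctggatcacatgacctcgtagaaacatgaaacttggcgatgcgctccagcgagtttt
Cd79a: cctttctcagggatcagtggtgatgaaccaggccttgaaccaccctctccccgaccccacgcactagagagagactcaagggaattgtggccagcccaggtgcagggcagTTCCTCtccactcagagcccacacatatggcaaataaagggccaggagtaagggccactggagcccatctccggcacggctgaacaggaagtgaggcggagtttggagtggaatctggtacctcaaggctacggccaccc
Sequences were found for 7 of the 9 genes, and none for Cd79b and Ms4a1. The octamer ATTTGCAT, which POU factors such as Pou2f2 bind, matched once upstream of Blnk and in no other of the 7, and 1.6% of 32851 upstream sequences of this length hold it. The PU.1 (Spi1) core GAGGAA matched upstream of Cd79a and Prdm1, and 23.3% of all hold it. The EBF motif CCCNNGGG matched in none of the 7, and 11.8% of all hold it. Another 4 motifs were looked at afterwards. The E box CAGGTG matched in 5 of the 7 (Blnk, Cd79a, Cr2, Prdm1 and Xbp1), and 17.2% of all hold it. The Xbp1 core GACGTG matched in 1, Pax5 (5.2% of all), and a RUNX site and an NF-kB site in 0 (4.4 and 0.14%). All matches were to the exact letters, with N for any base, so sites that differ from them were not counted. A motif without a match is thus not shown to be absent, and binding was not tested.

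Cd79a, Cd79b, Ms4a1 and Cr2 belong to the B cell receptor or the mature B cell surface. These genes differed between the groups by less than the spread between arrays could separate. Other B cell surface genes, Cd22 and Cd72 among them, passed limma's test and are described below. Cd79b, the brighter of the receptor's signalling chains, had ratios of -0.55, -0.73, -0.57, -0.81 and -0.01 with room air and -0.00, -0.07, -0.03, -0.65 and -0.33 with smoke. The groups overlapped, through a high value on room air replicate 5 and a low one on smoke replicate 4. The means of Cd79b were -0.54 ± 0.31 (SD, n = 5) and -0.22 ± 0.27, and the difference of 0.32 had a 95% interval from -0.03 to 0.67 (limma, adjusted p = 0.342). On slides 1 to 4 the smoke array was higher, by 0.55, 0.66, 0.54 and 0.17, and on slide 5 it was lower (-0.32).

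Ms4a1, the target of anti-CD20 antibodies, had ratios of -0.95, -1.55, -1.09, -1.54 and -0.37 with room air and of -0.84, -0.81, -0.83, -1.26 and -1.30 with smoke. Its difference was 0.09 (95% interval -0.37 to 0.55; limma, adjusted p = 0.907), and that of its second probe 0.06. Slide 5 again went the other way, with a within-slide difference of -0.93 against 0.11, 0.74, 0.26 and 0.28 on slides 1 to 4. Room air replicate 5 therefore held the highest Cd79b and the highest Ms4a1 of its group. Without it, the differences were 0.45 for Cd79b (adjusted p = 0.0747) and 0.27 for Ms4a1 (adjusted p = 0.439), and neither passed.

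Cd79a, the other signalling chain, was dim and ranged from 0.16 to 0.34 with room air and from 0.28 to 0.67 with smoke, a difference of 0.16 (95% interval -0.00 to 0.32; limma, adjusted p = 0.293). Cr2, which lowers the threshold of B cell activation when complement coats the antigen, differed by 0.12 at its brighter probe (adjusted p = 0.364) and by -0.03 at the other. The brighter Cr2 probe was higher with smoke on 5 of 5 slides, by 0.03 to 0.28. Pax5 differed by -0.08 at the cDNA clone probe (95% interval -0.44 to 0.28; adjusted p = 0.892). Its arrays followed their slides: the smoke and room air values were 0.95 and 1.00 on slide 1, 0.28 and 0.25 on slide 2, 0.61 and 0.82 on slide 3, 0.33 and 0.35 on slide 4, and 0.35 and 0.50 on slide 5. Under the other alternatives on the scanner files the differences moved, and none passed. They were 0.13 to 0.69 for Cd79a, -0.01 to 0.49 for Cr2 and -0.36 to -0.04 for Pax5.

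**Figure D2:**
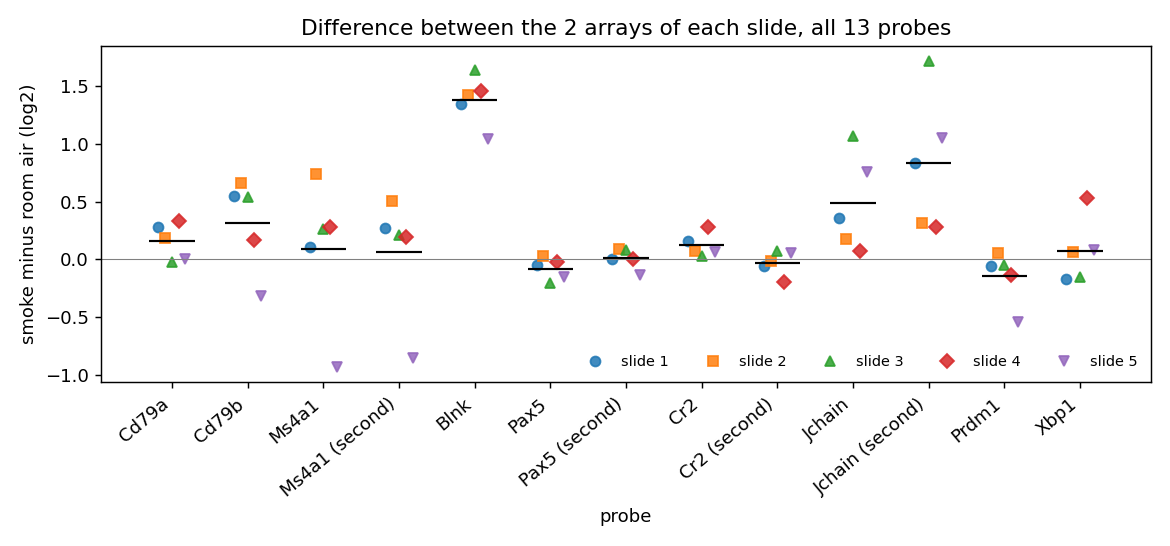
Difference in log2 ratio between the smoke and the room air array of each of the 5 slides, for all 13 probes; the black line is the mean. Blnk is above 1 on every slide, and slide 5 lies below 0 for Cd79b (-0.32) and Ms4a1 (-0.93).

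Among the plasma cell genes, Jchain was measured by 2 probes that gave different calls. The brighter one, A_51_P150710, had ratios of -2.18, -2.72, -2.60, -2.95 and -2.96 with room air and -1.82, -2.54, -1.53, -2.87 and -2.20 with smoke. The groups overlapped, and the difference of 0.49 did not pass (95% interval -0.04 to 1.01; limma, adjusted p = 0.322; with the slide as a block, adjusted p = 0.0589). The second, A_51_P150705, read -3.67, -3.91, -4.19, -3.71 and -4.25 with room air and -2.84, -3.60, -2.48, -3.44 and -3.20 with smoke. All its smoke arrays lay above its room air arrays, and its difference of 0.84 ± 0.20 (SE), or 1.79-fold, passed (limma, adjusted p = 0.0282). This call was lost without any of 5 arrays (room air replicates 2, 3 and 5 and smoke replicates 1 and 5), with adjusted p from 0.0577 to 0.0768 and differences from 0.76 to 0.86. It was also lost under 7 of 11 other alternatives, with adjusted p up to 0.273, while the difference was 0.67 or more in each. The exact Wilcoxon test cannot decide on this call, since its smallest adjusted p over all probes was 0.115. Both probes were higher with smoke on 5 of 5 slides. The within-slide differences were largest on slides 3 and 5, at 1.07 and 0.76 for the first probe and 1.71 and 1.05 for the second, and smallest on slide 4, at 0.08 and 0.28.

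Prdm1 and Xbp1, which drive plasma cell formation, did not pass. Prdm1 (Blimp-1) had means of 0.85 ± 0.20 in room air (SD, n = 5) and 0.70 ± 0.17 in smoke, a difference of -0.14 with a 95% interval from -0.38 to 0.09 (limma, adjusted p = 0.583). Xbp1 had means of -0.37 ± 0.24 and -0.29 ± 0.09, a difference of 0.07 with an interval from -0.16 to 0.30 (limma, adjusted p = 0.835). The Xbp1 difference ranged from -0.01 to 0.15 without each array in turn, and from -0.03 to 0.13 under the other alternatives on the scanner files. The Xbp1 probe does not tell the spliced, active form of the RNA from the unspliced one.

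Over the array, 8.22% of genes passed in either direction, and of the 9 genes 11.1%. The share was 59.1% in the list of receptor signalling, 33.3% in plasma cell genes, 27.3% in B cell transcription factors, 22.7% in B cell surface and lineage, 20.0% in recruitment and survival, and 11.1% in endoplasmic reticulum stress. The 8.22% includes dim genes: 18047 of 27669 were well above background in red on all arrays of a group, and so were all 9 genes. With dim red probes left out, 2992 of 28541 probes passed, against 2906 of 41173 with them. A share of 11.1% is therefore not read as an excess. Of the list genes described, the calls of Fcgr2b, Lat2, Dok3, Ptpn6, Vav1, Fkbp11, Tnfsf13, Spi1, Marco, Chil3, Msr1 and Cd68 held under each alternative on the scanner files but the exact Wilcoxon test. The sizes of some moved: with the mean of all probes the difference was 0.36 for Ptpn6 and 0.31 for Fkbp11, and with the scanner software's log ratio it was 1.12 for Spi1. Every other call among them was lost under at least 1 more alternative, and those of Plcg2 and Rasgrp3 were not recomputed. Among 22 measured genes of the B cell surface and lineage, 4 rose, 1 fell and 17 did not pass, with a median difference of 0.21. With the slide as a block, 7 were higher and 1 lower. The counts were 6 and 1 without room air replicate 1, and 1 and 1 with median centring. Cd72 and Cd22, inhibitory co-receptors of B cells, rose by 0.92 (1.89-fold; limma, adjusted p = 0.00591) and 0.85 (1.80-fold; adjusted p = 0.0136). The call of Cd72 was lost with median centring (adjusted p = 0.071). That of Cd22 was lost with the scanner software's log ratio (difference 0.34, adjusted p = 0.812) and without the offset (0.62, adjusted p = 0.492). Cd24a and Vpreb3, a chaperone of the pre-B cell receptor, rose by 0.41 and 0.35. Both calls were lost with median centring (adjusted p = 0.189 and 0.155), and that of Vpreb3 also with the scanner software's log ratio and without the offset. Ebf1, a factor that commits cells to the B lineage and is also found in stromal cells, fell by 0.31 (adjusted p = 0.0261), a call lost without any of 6 arrays, room air 2 and 5 and smoke 1, 3, 4 and 5 (adjusted p 0.0517 to 0.0655). It was also lost with red quantiles, without background correction and with the mean of all probes (-0.16, adjusted p = 0.176). The difference of Ebf1 ranged from -0.89 to -0.16 under the other alternatives on the scanner files.

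Of 22 measured genes of B cell receptor signalling, 12 rose, 1 fell and 9 did not pass, and the median difference was 0.56. The list had 14 higher and 2 lower with the slide as a block, 9 to 14 higher without each array in turn, and 6 higher and 1 lower with median centring. Fcgr2b, the inhibitory Fc receptor of B cells and macrophages, had the largest difference of the list, 1.48 ± 0.19 (SE), or 2.78-fold (limma, adjusted p = 0.0008). It passed without room air replicate 1 as well, the array on which it was highest of its group, with a difference of 1.69. The adaptors Lat2 and Dok3 rose by 0.99 and 0.86, the phosphatase Ptpn6 by 0.81, and Vav1 by 0.78. Plcg2, which Blnk brings to Btk, rose by 0.56 (adjusted p = 5.98e-05). Syk and Btk, the kinases on either side of Blnk, rose by 0.69 (adjusted p = 0.0216) and 0.68 (adjusted p = 0.0309). The call of Syk was lost without any of 3 arrays, room air 2 and 3 and smoke 1 (adjusted p 0.0506 to 0.0593), and with the red channel at its 75th percentile and median centring (adjusted p 0.092 or less). That of Btk was lost without any of 7, room air 2 to 5 and smoke 1, 3 and 5 (adjusted p 0.0541 to 0.0721), and with the scanner software's log ratio (0.0735), without the offset (0.0737) and with median centring (0.107). Rasgrp3 fell, and its difference was -0.52 (adjusted p = 0.0112). Most of these signalling genes are also used by macrophages and other myeloid cells, as background.

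Of 15 genes of plasma cells, 5 rose, 0 fell and 10 did not pass, with a median difference of 0.16. Fkbp11, a folding enzyme of secretory cells, rose by 0.64 (1.56-fold; limma, adjusted p = 0.00148), and Tnfrsf17 (BCMA), a survival receptor of plasma cells, by 0.31 (adjusted p = 0.0139). Ssr4, of the translocon, rose by 0.23. The calls of Tnfrsf17 and Ssr4 were lost under 3 and 4 alternatives besides the Wilcoxon test, with adjusted p up to 0.219 and 0.702, among them median centring and both scalings of the red channel alone. Tent5c and Derl3 rose by 0.51 and 0.38. The call of Tent5c was lost without any of 6 arrays, room air 2, 4 and 5 and smoke 2 to 4 (adjusted p 0.0527 to 0.0777), and that of Derl3 without any of 4, smoke 2 to 5 (adjusted p 0.0531 to 0.0646). Besides the Wilcoxon test, they were also lost under 6 and 5 of 12 other alternatives, with adjusted p up to 0.201 and 0.211. Sdc1 (CD138) and Mzb1, a chaperone of immunoglobulin assembly, differed by 0.03 (adjusted p = 0.968) and 0.11 (adjusted p = 0.805). The plasma cell list had 7 genes higher and past the threshold with the scanner software's log ratio and 6 with the slide as a block. It had 1 gene past the threshold with the red channel alone at its 75th percentile, 2 with red quantiles, 1 with median centring and 3 without the offset, without smoke replicate 2 or without smoke replicate 3.

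Of 27 genes of endoplasmic reticulum stress and Xbp1 targets, 3 rose and 24 did not pass, with a median of -0.02. With the slide as a block, 4 were higher and 1 lower, and 0 passed with median centring or with the red channel at its 75th percentile. The median was 0.06 without room air replicate 1. Sdf2l1 and Herpud1 rose by 0.39 and 0.34, and Derl2 by 0.19, a call lost without any of 7 arrays, room air 2, 3 and 5 and smoke 1, 2, 4 and 5 (adjusted p 0.0728 to 0.109). It was also lost under 9 of 12 other alternatives besides the Wilcoxon test, with a difference down to 0.08 and adjusted p up to 0.786. Those of Sdf2l1 and Herpud1 were lost under 3 and 2 of them (adjusted p up to 0.418 and 0.372). Of 11 B cell transcription factors, 2 rose and 1 fell, and with the slide as a block, or without room air replicate 5, 2 were higher and 3 lower. The counts were 1 and 2 with median centring and 1 and 0 with the red channel at its 75th percentile. Spi1 (PU.1), which acts in both B cells and macrophages, rose by 0.57 and Irf8 by 0.34, while Id3 fell by 0.54 (limma, adjusted p = 0.000257). With the red channel at its 75th percentile the calls of Irf8 and Id3 were lost (adjusted p = 0.065 and 0.0747), and with median centring that of Irf8 (adjusted p = 0.436).

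Of 20 genes that draw B cells into tissue or keep them alive, 4 rose and 16 did not pass, with a median of 0.10. Without room air replicate 1, 8 were higher and 1 lower with a median of 0.21, while 2 were higher with the scanner software's log ratio, without the offset or with median centring. Tnfsf13 (APRIL), a survival factor of plasma cells, rose by 0.76 (1.69-fold; limma, adjusted p = 0.000315), and its receptor Tnfrsf13b (TACI) by 0.61 (adjusted p = 0.000413). Tnfsf13b (BAFF), the survival factor of mature B cells, differed by 0.12 (adjusted p = 0.739). Pigr, which carries Jchain-bound immunoglobulin across epithelia, rose by 1.56 (2.94-fold; adjusted p = 0.0177), and with the scanner software's own log ratio the difference was 0.08 (adjusted p = 0.941, and 0.137 without the offset). On room air replicate 1 Pigr was 4.52, within the smoke range of 4.29 to 4.78, and on the other room air arrays it was 2.33 to 3.03. Ccr7 rose by 0.44, a call lost without any of 7 arrays, room air 2 to 4 and smoke 1, 2, 3 and 5 (adjusted p 0.0606 to 0.104), and under 6 of 12 other alternatives besides the Wilcoxon test (adjusted p up to 0.244). Cxcl13, the chemokine that gathers B cells into follicles, had means of 1.51 ± 0.95 (SD, n = 5) and 1.93 ± 0.38 and did not pass (difference 0.42, adjusted p = 0.692). Without room air replicate 1 the difference of Cxcl13 was 0.82, and it passed (adjusted p 0.0233, and up to 0.85 without another array).

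**Figure D3:**
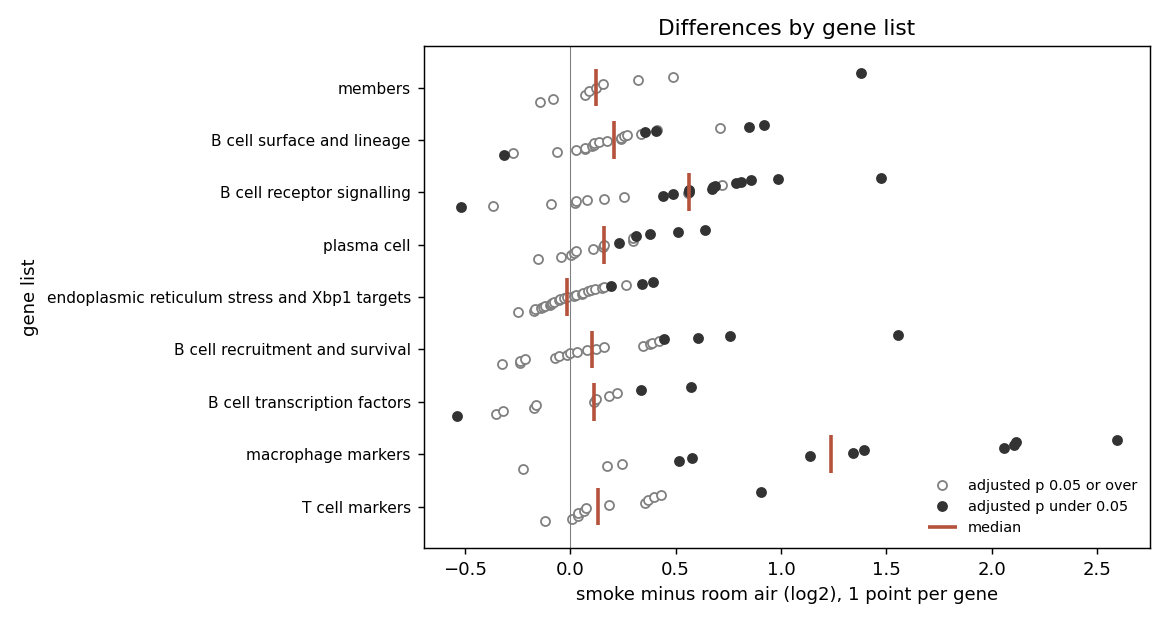
Smoke minus room air difference of each gene, by list, with 1 point per gene. Filled points passed limma's test, and the bar is the list's median, 0.12 for the 9 genes (members), 0.56 for receptor signalling and 1.24 for macrophage markers.

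Immunoglobulin genes were read by 46 probes under 22 names, of which 42 had a positive difference (91.3%, against 48.6% of all probes), with a median of 0.31 against -0.00 over all probes. The median was 0.74 with the red channel at its 75th percentile, 0.63 with the scanner software's log ratio, 0.55 without the offset, and 0.27 with median centring. Of these, 5 passed, all higher, and blocking by slide gave 15, none of them lower. The 5 are 10.9% of the family, and over all probes 4.35% passed as higher, or 6.78% with the slide as a block. With the brightest probe of each of the 22 names, 1 passed (4.55%), against 4.95% of all genes as higher. With the slide as a block 5 of these 22 passed, where 7.50% of all genes were higher. Over the 46 probes, the count was 0 with the scanner software's log ratio and 1 without the offset. It was 10 and 12 with the red channel alone (quantiles and 75th percentile). In the same order, 1560, 1216, 1371 and 1142 of 41173 probes over the array passed as higher. Of the 46 probes, 3 passed without smoke replicate 1, 9 without smoke replicate 4, and 4 to 6 without each other array. Of the 33 probes well above background on all arrays, 33 had a positive difference. Of 12 T cell markers, 11 were positive too (91.7%), and the shares in other lists are given below. The number with a positive difference was 42 to 44 of 46 under each other scaling or background correction, not always at the same probes. Probes of this family share sequence, so the gene behind a probe is uncertain, and the probes are not independent of each other. Ighg1, the constant region of IgG1, was read by 3 probes with differences of 0.65, 0.97 and 0.66. The probe A_51_P461067 passed (limma, adjusted p = 0.0135), with means of 0.50 ± 0.25 in room air (SD, n = 5) and 1.47 ± 0.46 in smoke. A probe named Ighg, A_51_P275642, had a difference of 1.01 (adjusted p = 0.0257), a call lost without any of 3 arrays, room air 4 and 5 and smoke 1 (adjusted p 0.0571 to 0.0713), while the brightest Ighg probe differed by 0.25 (adjusted p = 0.542). Ighm, the constant region of IgM, differed by 0.18 (adjusted p = 0.632) at its brightest probe and by 0.86 at the second (adjusted p = 0.135; with the slide as a block, 0.00837), and the last Ighm probe, A_52_P311042, was not well above background. Both Igh-1a probes were near background. The largest difference of the family, 1.40 ± 0.29 (SE), was at A_51_P391836, named Igh-VJ558 (adjusted p = 0.0117).

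**Figure D4:**
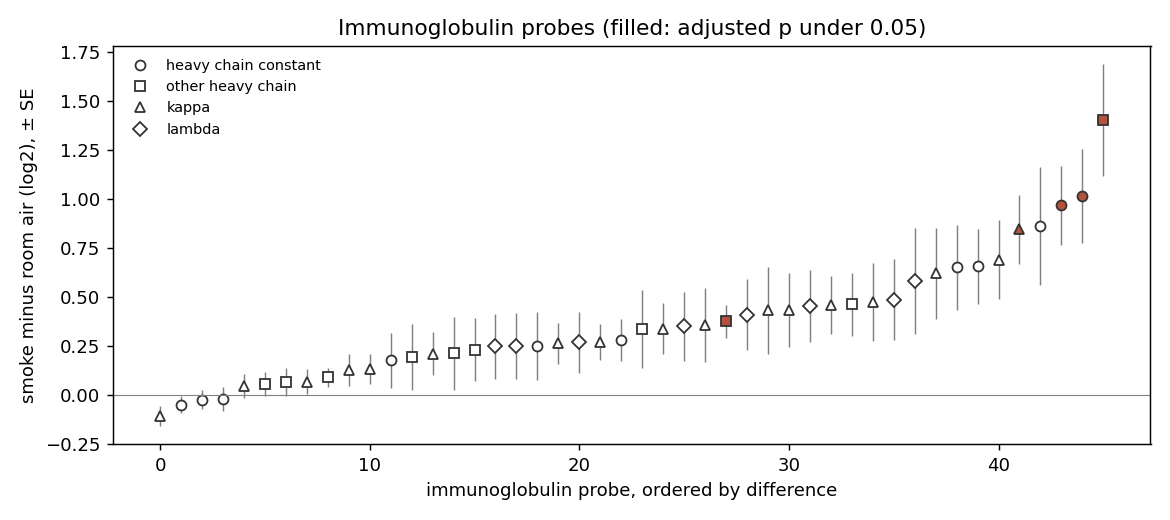
Smoke minus room air difference ± SE of 46 immunoglobulin probes, in order of the difference. Filled points are the 5 probes that passed limma's test, and 42 of the 46 lie above 0.

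Markers of other cell types moved with the group as well. Of 12 macrophage markers, 9 were higher with smoke and past the threshold, with a median difference of 1.24. The count was 7 with the scanner software's log ratio, median centring or the red channel alone. With the slide as a block 9 were higher and 1 (Mertk, -0.22) lower. Their mean log2 ratio was 1.93, 1.68, 1.69, 1.66 and 1.68 on room air arrays 1 to 5 and 2.88, 2.90, 2.98, 2.89 and 2.83 on smoke arrays 1 to 5. No smoke array overlapped the room air arrays in this mean, as for Blnk. Marco and Chil3 had the largest differences of the list, 2.60 and 2.12, followed by Msr1 (2.10) and Cd68 (2.06). The brightest, Lyz2, differed by 0.18 (limma, adjusted p = 0.705), and 0 of the 12 were below background. The summed red signal of the 12 ranged from 1325026 to 1656292 with room air and from 1553001 to 2376566 with smoke. The part of macrophages in the differences of Blnk, Fcgr2b, Spi1 and the other signalling genes was not tested.

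Among the other lists, 1 of 12 T cell markers (Icos, 0.91) was higher and past the threshold (8.33%, against 4.95% of all genes), and 4 with the slide as a block, where 7.50% of all genes were. The call of Icos was lost with the scanner software's log ratio (adjusted p = 0.148) and without the offset (0.0991), and the T cell list then had 0 calls. Of 7 neutrophil markers 1 was higher and past the threshold (Mmp8, 1.16), with a median difference of 0.16. Without room air replicate 1 the count was 2 and the median 0.50. Of 8 plasmacytoid dendritic cell markers 1 was lower (Tcf4, which fell by 0.29), and 2 with the slide as a block. None of 8 thymus markers (0 with limma, 0 with the slide as a block), 8 alveolar type 2 markers (0 and 1) or 6 club cell markers (0 and 1) passed with limma. The call of Mmp8 was lost without any of 4 arrays, room air 2, 3 and 5 and smoke 1 (adjusted p 0.0523 to 0.0562), and with the scanner software's log ratio. That of Tcf4 was lost under 3 alternatives besides the Wilcoxon test (adjusted p up to 0.153). Of the thymus markers, Rag1, Rag2 and Arpp21 were not well above background in red on any array. Differences were positive for 91.7% of T cell markers (median 0.13), 87.5% of alveolar type 2, 71.4% of neutrophil and 62.5% of thymus markers. They were positive for 33.3% of club cell and 25.0% of plasmacytoid dendritic cell markers, against 48.1% of all genes.

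**Figure D5:**
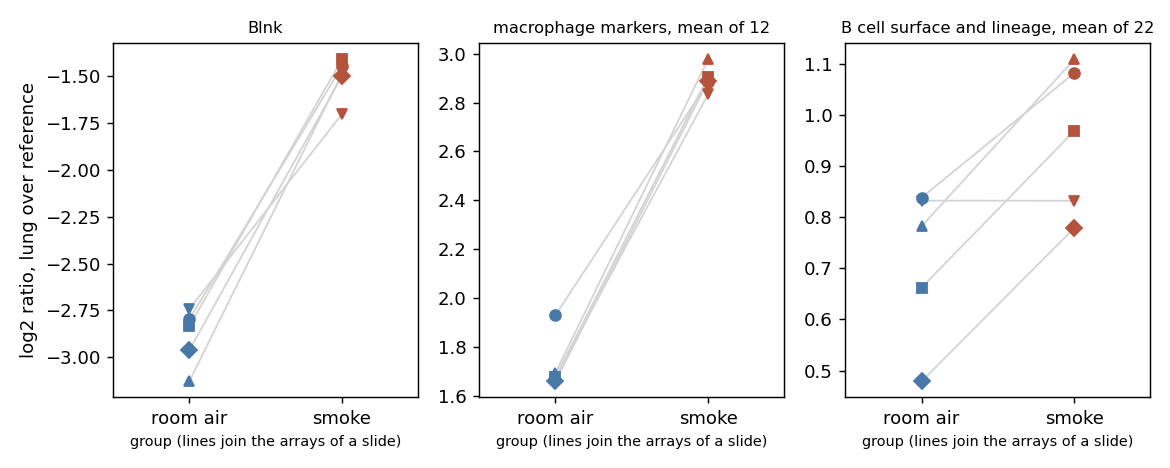
Log2 ratio of Blnk, mean of 12 macrophage markers and mean of 22 genes of the B cell surface and lineage on each array, with lines joining the 2 arrays of a slide. The groups lie apart in the first 2 panels and overlap in the last, where room air spans 0.48 to 0.84 and smoke 0.78 to 1.11.

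The 9 genes also differed in how they varied from array to array within the groups. Taking deviations from the group mean over 10 arrays, Pearson's r was 0.91 between Cd79b and Ms4a1, 0.92 between Ms4a1 and Prdm1, and 0.89 between Cd79b and Prdm1. Cd79a, the partner chain of Cd79b, had r of -0.42 with Cd79b, -0.18 with Ms4a1 and -0.73 with Jchain. Its green signal was near background on most arrays, so its r may hold background noise rather than the gene. Blnk had r of 0.45 with Cd79b and 0.51 with Ms4a1. Jchain had r of 0.35 with Cd79b and 0.22 with Ms4a1, and 0.72 with Pax5. Arrays of a slide share their slide, so these values also hold what a slide gives to both its arrays. The 5 genes most like the mean of Cd79a, Cd79b and Ms4a1, out of 17126 well above background on all arrays, were Prf1 (r = 0.94), Map4k1 (0.94), Ptprcap (0.90), Prdm1 (0.90) and Crnde (0.90). For Blnk they were Ly6e (0.91), Zdhhc14 (0.91), 9330159M07Rik (0.89), Afmid (0.88) and Mybbp1a (0.88). None of the 5 genes most like Blnk was among the 5 most like that mean. These are descriptions over 10 arrays, picked as the highest of many.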

How the data were processed

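The authors deposited the scanner output of 10 Agilent whole mouse genome arrays, 5 per group. Per the file headers, Agilent Feature Extraction 9.5.3.1 gave, for every spot, an intensity in red and in green with its background, flags for outliers and for spots well above background, and a log10 ratio of red over green. They also deposited a table of log2 values, the mean of both channels, whose column medians were 7.34 to 8.06; it is not centred and holds no direction between the channels. The design had been written with this reading of the channels as the measure.

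Mean intensities were corrected with normexp of limma 3.58.1 in R 4.3.3 against the background median (offset 50), control spots were removed, loess within arrays was applied to the ratios, spots with outlier flags (83 to 144 per array) were set missing, and replicate spots were averaged by probe. Groups were compared two-sided with lmFit and eBayes, with Benjamini-Hochberg adjustment over 41173 probes and a threshold of 0.05; 1 probe had no value. The brightest probe in red represents a gene. Of 41174 probes, 22951 were named by accession, 6659 by current symbol and 3109 by synonym, and 8455 kept the name in the file. The steps were tested on simulated data.

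Arrays with the same replicate number share a slide. Their deviations from the group means correlated at 0.157, 0.46, 0.461, 0.55 and 0.415, against a median of -0.124 between different numbers. The main test did not pair the arrays, and the slide entered as a block in an alternative only. Intervals and p-values of the main test therefore include the spread between slides. That the samples are separate mice comes from the methods. With 5 arrays per group, precision is limited throughout. Genes named from the lists are up to 8 per list with the largest difference among those past the threshold, with some preset genes in any case, among them Sdc1, Mzb1, Cxcl13, Tnfsf13b and the immunoglobulin constant regions; not every gene under this rule is described; Plcg2, Rasgrp3, Lyz2, Mertk, the thymus markers, the 4 further motifs and other immunoglobulin probes were added after their values were seen. The 9 genes and the lists were chosen with earlier results of these data known. Alternatives were the slide as a block, a Wilcoxon test, which the methods name, in its exact form, other background corrections, scalings, filters and channels, the mean of all probes, the authors' table, and leaving out each array; leaving out slide 1 was added after the data were seen.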

Additional observations from a re-analysis of the deposited data

Results flagged for a closer look

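Among the values of the named genes and probes, 9 of 142 groups of 5 arrays held an array far from the others, where chance gives about 5% of groups. Room air replicate 1 gave 3 of these: Fcgr2b at 0.093 (the others -1.12 to -0.86), Mmp8 at 2.31 (0.99 to 1.14) and Id3 at 1.09 (1.27 to 1.34). Room air replicate 4 gave 2, Cd22 at 1.74 (2.36 to 2.54) and the Igkv4-55 probe at 0.58 (0.99 to 1.10). In the smoke group, Cd72 was 0.19 on replicate 2 (0.54 to 0.59), Marco 4.97 on replicate 4 (5.92 to 6.13), Mrc1 5.15 on replicate 3 (4.28 to 4.43) and the Ighg1 probe A_51_P461067 2.26 on replicate 1 (1.13 to 1.41). No array of the 13 probes of the 9 genes was far from its group in this way.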

How the results depend on the processing

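Blnk stayed higher with smoke and past the threshold under every alternative on the scanner files but the exact Wilcoxon test, with differences from 1.26 to 1.45. The count of the 9 genes past the threshold was 1 without each array in turn (1 to 1), and their median difference ranged from 0.08 to 0.16. Under the other alternatives on the scanner files the median was 0.08 to 0.35, highest with the red channel at the 75th percentile. Over all probes, 2906 passed, and 2102 to 3660 without each array. With the replicate block, 5019 passed, and it changed no call among the 13 probes. The exact Wilcoxon test called 0 probes and 0 of the 9 genes, since its smallest adjusted p was 0.115; 5446 probes had an unadjusted p under 0.05, against 7479 with limma. The red channel at the 75th percentile gave 1759 probes, normexp without offset 1660 and median centring 1434; the cause was not tested. Of the calls, 61.7% were higher, 73.2% without the offset and 47.9% with median centring. The authors' table gave 13 probes, 0 of the 9 genes and a Blnk difference of -0.61, with its groups exchanged and both channels averaged; it was set against the 9 genes only. Of 39 named list genes past the threshold, 31 passed without each array, and 15 under all alternatives on the scanner files but the Wilcoxon test. Without slide 1, 2825 probes and 1 of the 9 genes passed. Median red signals lay between 1.69 and 2.83 times background, which limits what Cd79a, Cr2 and Pax5 can show.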
